A study of Mus musculus with 4 samples.

Results

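The genes described are 33 that encode the enzymes of glycolysis and the pentose phosphate pathway, glucose carriers and regulators of both routes, in mouse embryonic stem cells. They were chosen by name: 16 glycolytic enzymes, 7 pentose phosphate enzymes, 5 regulators of fructose bisphosphate levels, 3 pyruvate dehydrogenase kinases and 2 glucose transporters. All 33 were found among the 45706 genes of the count table, and all 33 were among the 18005 genes tested. The members lie on 14 chromosomes.

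RNA was measured in the mouse embryonic stem cell line V6.5, 24 h after doxycycline was added (2 libraries, A and B, labelled KLF KO) and at 0 h (2 libraries, A and B, labelled KLF WT). The stable lines were made with a lentiviral vector in which doxycycline switches on Cas9 and green fluorescent protein, together with guides against either Klf4 or the 3 genes Klf2, Klf4 and Klf5. The titles of all 4 libraries carry the abbreviation TKO, those at 24 h also name a KLF4 knockout and those at 0 h name WT cells, so which guides each library carried is uncertain. Clones were picked and those with loss of the proteins on blots were used, per the labels' protocols, which do not say whether A and B were separate clones. Both groups grew on irradiated feeder cells with serum, LIF and, by their culture label, inhibitors of MEK and GSK3. Only the 24 h libraries had received doxycycline, so the drug, Cas9 cutting, KLF loss and time cannot be told apart.

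Glycolysis splits glucose into pyruvate in the cytosol and yields ATP. The pentose phosphate pathway branches off after the first phosphorylation and supplies NADPH and ribose phosphate for nucleotides. Many steps have several isozymes, products of different genes named for the tissue where each is common, such as the liver, muscle and platelet forms of phosphofructokinase. Pluripotent stem cells are known for a high rate of glycolysis together with fast division.

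Libraries held 46031578 to 52412844 counts. Klf4 was at 244.4 and 235.7 CPM (counts scaled to library size, with TMM factors) at 24 h, against 331.4 and 257.0 CPM at 0 h. Klf2 was at 147.3 and 152.5 CPM at 24 h and 231.9 and 123.5 CPM at 0 h, and Klf5 at 225.9 and 215.6 CPM at 24 h and 430.9 and 294.3 CPM at 0 h. None of the 3 passed edgeR's test, and a small deletion need not change a transcript's level, so these values do not check the labels. The 12 stem cell markers summed to 5782 and 5809 CPM at 24 h, against 6896 and 6510 CPM at 0 h. Of them Utf1, Pou5f1 and Zfp42 were called lower and 0 higher, against 2.65% and 4.15% of all genes tested. The 0 h replicate A stood apart: across 13545 genes, which are not independent, its deviation from the mean of the libraries correlated with GC content (r = 0.62, against -0.25, -0.35 and -0.29 in 24 h A, 24 h B and 0 h B). It was above 0 h replicate B in 28 of the 33 members (84.8%), against 54.1% of all genes tested, and the members' median GC content was 52.6%, against 49.9% of all genes tested. Where leaving out this library moved a member's log2 fold change by over 1.5 times or ended its call, the value without it is given.

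The summed level of the 33 genes was lower at 24 h, and 7 of them passed the test. The 33 genes summed to 8035 and 7849 CPM at 24 h, against 11844 and 9801 CPM at 0 h, so both 24 h libraries lay below both 0 h libraries. In bulk samples, fewer cells of a type and less RNA per cell cannot be told apart. By edgeR's test at an adjusted p of 0.05, 7 of 33 members were called lower (21.2%), against 2.65% of all genes tested, and 0 were called higher, against 4.15% (6.8% in either direction). The 7 were Slc2a1, Pfkp, Aldoa, Aldoc, Tpi1, Pkm and Pdk1. Another 7 members, Hk1, Gpi1, Pfkl, Eno1, Pdk2, Pgd and Tigar, had an adjusted p between 0.05 and 0.1. Each of these was called lower by DESeq2's Wald test. Each was also called lower without a filter, with the replicate letter as a block and with offsets for GC content and length. In those 3 fits 5.10%, 8.86% and 14.2% of all genes were lower. At an unadjusted p under 0.05, 17 members were lower and 1 (Pfkfb3) was higher, against 12.6% and 13.2% of all genes tested. DESeq2's Wald test called 14 lower and 0 higher, against 5.32% and 5.76% of all genes. In limma voom 6 were lower and 0 higher, against 2.16% and 3.87%. The median log2 fold change was -0.35 over the members and -0.01 over all genes tested.

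The groups did not overlap, with 24 h below 0 h, in 22 members (66.7%), against 29.5% of all genes tested. They did not overlap with 24 h above 0 h in 5 members (15.2%), against 29.3%. Those 5 were Pfkm, Pfkfb1, Pfkfb2, Pfkfb3 and Eno3. The remaining 6, Pfkfb4, Eno2, Pdk3, Pgls, Rpia and Rpe, overlapped. The 24 h libraries were close to each other, with a ratio of A to B between 0.907 and 1.16 in every member. Without 24 h replicate A the members' median log2 fold change was -0.35, and without 24 h replicate B it was -0.37. The counts of calls rest on single libraries: without 24 h replicate A, and likewise without 24 h replicate B, 1 member (Aldoc) was called lower, as were 1.05% and 0.899% of all genes. Without 0 h replicate A, 21 were called lower and 3 higher (15.8% and 16.5% of all genes), without 0 h replicate B 23 lower and 2 higher (26.99% and 23.2%), and with offsets for GC content and length 20 lower and 2 higher (14.2% and 11.6%).

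**Figure D1:**
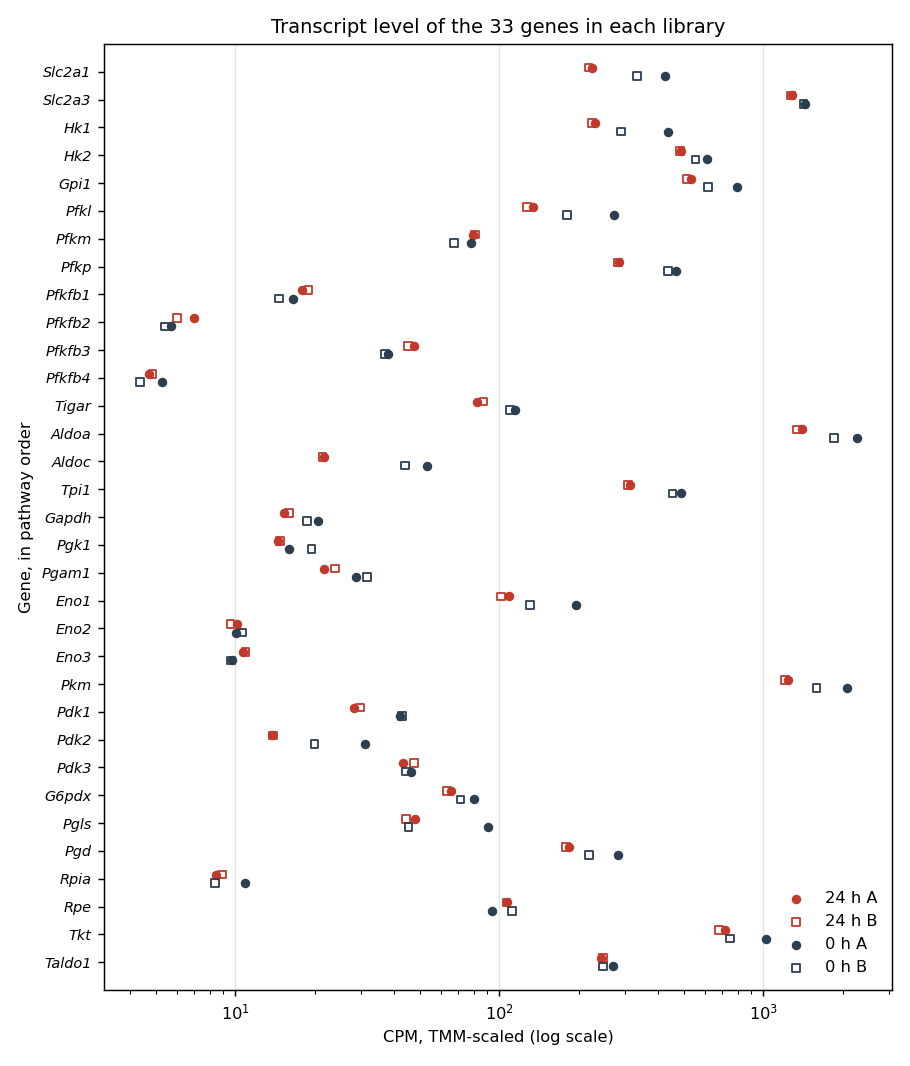
CPM, scaled by TMM and on a log axis, of the 33 genes in pathway order, with 24 h libraries in red and 0 h libraries in dark blue (circles A, squares B). The 24 h points of Aldoc, at 21.7 and 21.4 CPM, lie well left of the 0 h points at 53.5 and 44.1 CPM, while those of Pdk3 and Rpe lie among them.

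The sequences before the start sites are shown for 3 genes called lower and for Pdk3, the uncalled partner of Pdk1. They are the 250 bases upstream of the first start that RefSeq lists on GRCm38.p6, which need not be the start used in these cells. Capitals mark matches, on either strand, to the KLF and SP boxes CCCCACCC, CCACACCC and CCCCGCCC, the hypoxia response core ACGTG and the E-box CACGTG, which contains that core on both strands.
Slc2a1 (GRCm38, chr4:119108495-119108744, plus strand): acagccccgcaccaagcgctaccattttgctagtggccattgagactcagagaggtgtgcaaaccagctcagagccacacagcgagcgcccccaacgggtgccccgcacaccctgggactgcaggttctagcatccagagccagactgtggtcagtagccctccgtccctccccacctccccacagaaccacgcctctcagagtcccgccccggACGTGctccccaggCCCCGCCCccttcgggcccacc
Pfkp (GRCm38, chr13:6648772-6649021, minus strand): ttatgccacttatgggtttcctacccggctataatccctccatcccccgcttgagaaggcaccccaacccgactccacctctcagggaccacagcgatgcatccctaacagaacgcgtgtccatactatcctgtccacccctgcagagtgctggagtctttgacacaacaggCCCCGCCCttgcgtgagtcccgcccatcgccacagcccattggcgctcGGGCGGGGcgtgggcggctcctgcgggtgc
Pdk1 (GRCm38, chr2:71872974-71873223, plus strand): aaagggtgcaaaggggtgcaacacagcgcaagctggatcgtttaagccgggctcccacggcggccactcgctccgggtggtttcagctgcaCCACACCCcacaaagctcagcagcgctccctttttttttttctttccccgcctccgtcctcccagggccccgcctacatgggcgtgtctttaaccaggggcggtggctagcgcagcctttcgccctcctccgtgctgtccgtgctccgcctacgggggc
Pdk3 (GRCm38, chrX:93832151-93832400, minus strand): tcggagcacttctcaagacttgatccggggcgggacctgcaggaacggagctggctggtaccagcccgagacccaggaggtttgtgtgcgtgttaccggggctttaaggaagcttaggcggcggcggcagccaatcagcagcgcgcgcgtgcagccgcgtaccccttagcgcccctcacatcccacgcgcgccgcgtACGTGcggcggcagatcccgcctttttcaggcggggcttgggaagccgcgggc

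Slc2a1 held CCCCGCCC 22 bases and ACGTG 36 bases before the start, counted from the first base of each match. Pfkp held 2 matches to CCCCGCCC, as did Tkt and Tigar, which were not called lower. Pdk1 held CCACACCC and Pdk3 held ACGTG. The printed promoters do not stand for all members, whose counts follow. Of 32 members with a promoter in the table (all but Slc2a3), 17 held any of the 3 KLF and SP boxes (53.1%), against 25.1% of 27025 genes' promoters. The box CCCCGCCC alone was in 12 of the 32 (37.5%), against 16.3%. ACGTG was in 9 (28.1%), against 16.6%, and CACGTG in 3 (9.38%), against 6.05%. A KLF or SP box was in 6 of the 7 members called lower, all but Aldoc, which held none of the motifs and had the lowest log2 fold change, and in 11 of the other 25, and ACGTG in 1 of the 7 and 8 of the other 25. The members' promoters had a median GC content of 59.4%, against 52% of all promoters. A match is a description of letters, and binding was not measured here.

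Glucose enters through facilitative carriers, and the less abundant one fell. Slc2a1, which encodes GLUT1 (chromosome 4, 119108711 to 119137983), was at 224.2 and 217.8 CPM at 24 h, against 425.6 and 332.2 CPM at 0 h. Both 24 h libraries were below both 0 h libraries, and the log2 fold change was -0.78 (SE 0.13, adjusted p = 0.0217, and -0.59 without 0 h replicate A). Slc2a3, which encodes the high-affinity carrier GLUT3, was at 1287 and 1275 CPM at 24 h, against 1438 and 1420 CPM at 0 h. It did not pass (log2 fold change -0.16, SE 0.09, adjusted p = 0.296), although its groups did not overlap either. Per length, in TPM (counts over the length of each gene's merged exons, scaled to a fixed total), Slc2a3 was the higher, at 547.1 ± 10.2 TPM at 24 h and 596.0 ± 2.1 TPM at 0 h (SD, n = 2). Slc2a1 made up 26.5% and 26.1% of the 2 carriers' summed TPM at 24 h, against 38.0% and 32.6% at 0 h. By the principal transcript's uniquely matched length, the share was 17.4% and 17.1% at 24 h, against 26.4% and 22.1% at 0 h. The count ratio of Slc2a1 to Slc2a3 was 0.174 and 0.171 at 24 h, against 0.296 and 0.234 at 0 h. With 2 libraries in each group, an exact permutation test of such a ratio cannot go below p = 0.333, so shares and ratios are given as descriptions.

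Hexokinase traps glucose in the cell by phosphorylating it. Hk2 was at 486.7 and 483.9 CPM at 24 h, against 613.4 and 554.0 CPM at 0 h (log2 fold change -0.27, adjusted p = 0.149). Hk1 was at 230.1 and 224.7 CPM at 24 h, against 434.4 and 289.4 CPM at 0 h (log2 fold change -0.67, SE 0.18, adjusted p = 0.076). Neither passed the test, and in both genes the 24 h libraries lay below the 0 h libraries. The 0 h replicates of Hk1 differed 1.5-fold from each other, and without 0 h replicate A its log2 fold change was -0.35. The share of Hk1 in the pair's summed TPM was 24.9% and 24.5% at 24 h, against 33.1% and 26.8% at 0 h. By uniquely matched length it was 40.3% and 39.9% at 24 h, against 50.3% and 42.8% at 0 h, so which hexokinase leads in 0 h replicate A depended on the length used. Gpi1, the isomerase that follows, was at 530.7 and 511.6 CPM at 24 h, against 796.4 and 618.9 CPM at 0 h (log2 fold change -0.44, adjusted p = 0.0966, and -0.25 without 0 h replicate A).

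Phosphofructokinase, a tetramer that commits sugar to glycolysis, had its 3 isozyme genes in different directions by sign. Pfkp, the platelet form (chromosome 13, 6579768 to 6648777), was at 284.2 and 282.3 CPM at 24 h, against 466.6 and 437.2 CPM at 0 h. It fell by 0.67 on the log2 scale (SE 0.10, adjusted p = 0.0124), a difference far larger than the spread within either group. Pitrm1 on the other strand shares 5.58% of Pfkp's exon bases, so part of its counts is uncertain. Pfkl, the liver form, was at 133.8 and 127.6 CPM at 24 h, against 273.0 and 180.4 CPM at 0 h, and did not pass (log2 fold change -0.80, SE 0.19, adjusted p = 0.0508), with -0.47 without 0 h replicate A. Of the other fits of all 4 libraries, limma voom and the filter at 1 CPM did not call Pfkl, and the rest called it lower. Pfkm, the muscle form, was at 79.3 and 81.0 CPM at 24 h, against 78.3 and 67.5 CPM at 0 h (log2 fold change 0.14, adjusted p = 0.484). With GC and length offsets, Pfkm's log2 fold change was 0.22 and it passed, as it did without 0 h replicate A (0.25), while without 0 h replicate B it was 0.030 and did not pass. The share of Pfkm in the step's summed TPM was 36.5% and 37.6% at 24 h, against 23.6% and 25.3% at 0 h, while the shares of Pfkl and Pfkp were both smaller at 24 h in every library. Which isozyme leads depended on the length used: by the principal transcript's uniquely matched length, Pfkp held 51.9% and 52.2% at 24 h and 52.8% and 59.4% at 0 h, and Pfkm 20.8% and 21.5% at 24 h and 12.7% and 13.2% at 0 h.

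The bifunctional enzymes of the Pfkfb family make and break down the fructose bisphosphate that activates phosphofructokinase, and none of its 4 genes passed the test. Pfkfb3, a form with high kinase activity, was at 47.6 and 45.2 CPM at 24 h, against 37.9 and 36.9 CPM at 0 h (log2 fold change 0.31, SE 0.11, adjusted p = 0.136). With GC and length offsets, with or without the replicate letter as a block, it passed as higher. In those fits 14.5% and 11.6% of all genes were called higher. The other fits of all 4 libraries did not call it. Over left-out libraries its log2 fold change was 0.25 to 0.33. Pfkfb1 was at 17.95 and 18.9 CPM at 24 h and 16.5 and 14.6 CPM at 0 h. Pfkfb2 was at 7.004 and 6.03 CPM at 24 h and 5.71 and 5.41 CPM at 0 h. In both the 24 h libraries lay above the 0 h libraries. Pfkfb4 was at 4.71 and 4.85 CPM at 24 h, within the 0 h values of 5.30 and 4.36 CPM (log2 fold change -0.02, and 0.13 without 0 h replicate A). The family summed to 39.6 and 38.4 TPM at 24 h, against 33.1 and 30.8 TPM at 0 h, and it was the one step of more than 1 gene whose summed level was higher at 24 h. Tigar, a phosphatase of fructose bisphosphates named for its induction by p53 in human cells, was at 82.7 and 87.2 CPM at 24 h, against 114.5 and 109.8 CPM at 0 h (log2 fold change -0.40, SE 0.10, adjusted p = 0.0632).

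Aldolase, which splits the sugar into triose phosphates, fell in both forms among the members. Aldoc, the form common in brain (chromosome 11, 78322968 to 78327781), was at 21.7 and 21.4 CPM at 24 h, against 53.5 and 44.1 CPM at 0 h. Its log2 fold change of -1.18 (SE 0.14, adjusted p = 0.00782) was the lowest of the 33. In the fits that left out a library it was -1.03 to -1.32. Aldoa (chromosome 7, 126795234 to 126800751) was at 1404 and 1347 CPM at 24 h, against 2260.2 and 1860 CPM at 0 h (log2 fold change -0.58, SE 0.12, adjusted p = 0.0321, and -0.44 without 0 h replicate A). Aldoa held 98.6% of the step's summed TPM in each 24 h library and 97.9% in each 0 h library. The count ratio of Aldoc to Aldoa was 0.0154 and 0.0159 at 24 h, against 0.0237 in both 0 h libraries, so the groups did not overlap. Of 4 neuron markers, Tubb3 was called lower at 24 h, at 8.63 and 9.10 CPM against 24.7 and 16.4 CPM at 0 h. Map2, Rbfox3 and Syp were at 0.363 to 1.93 CPM in all 4 libraries and the list summed to 11.6 and 11.8 CPM at 24 h, against 27.5 and 20.5 CPM at 0 h. The part of such cells in the level of Aldoc was not tested.

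Tpi1, which interconverts the triose phosphates (chromosome 6, 124810586 to 124814296), was at 311.7 and 308.1 CPM at 24 h, against 486.6 and 453.9 CPM at 0 h. It fell by 0.60 on the log2 scale (SE 0.10, adjusted p = 0.0171), and its log2 fold change was -0.55 without 0 h replicate A. The next 3 enzymes had low counts. Gapdh, which makes NADH at this step, had 15.3 and 15.98 CPM at 24 h and 20.6 and 18.7 CPM at 0 h. Pgk1, the first ATP-yielding kinase of the route, had 14.5 and 14.8 CPM at 24 h and 15.9 and 19.4 CPM at 0 h. Pgam1, a mutase, had 21.7 and 23.9 CPM at 24 h and 28.6 and 31.6 CPM at 0 h. In all 3 the 24 h libraries lay below the 0 h libraries, and none passed (log2 fold changes -0.33, -0.27 and -0.40; adjusted p = 0.172, 0.292 and 0.111). Without 0 h replicate A the value of Pgk1 was -0.41. These genes share much of their sequence with others. Of the 50-base windows of the principal transcript, the length of 1 read, 85.05% of Gapdh's, 68.4% of Pgk1's and 41.8% of Pgam1's were also found, with up to 2 mismatches, in another annotated gene. Gapdh shared windows with 383 other genes, 346 of them pseudogenes. In all, 10 members had at least 30% of their windows shared, among them Tpi1 (31.3%), Gpi1 (50.1%), Taldo1 (40.9%) and G6pdx (32.1%). How reads with several matches were counted is not stated, so the levels of such genes are uncertain.

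The same limit touched the end of the pathway. Eno1, the main enolase, shared 81.3% of its windows, among others with Eno1b, and was at 108.7 and 101.7 CPM at 24 h, against 195.5 and 131.0 CPM at 0 h (log2 fold change -0.63, SE 0.18, adjusted p = 0.0876, and -0.32 without 0 h replicate A). Eno1b was at 39.1 and 41.5 CPM at 24 h and 31.8 and 47.7 CPM at 0 h, and these overlapped. Eno2, the neuronal form, was at 10.2 and 9.60 CPM at 24 h and 10.1 and 10.6 CPM at 0 h. Eno3, the muscle form, was at 10.7 and 10.9 CPM at 24 h and 9.69 and 9.61 CPM at 0 h. Neither passed, and the groups overlapped in Eno2 but not in Eno3 (log2 fold changes -0.07 and 0.17). Without 0 h replicate A that of Eno2 was -0.11. Pkm, pyruvate kinase (chromosome 9, 59656368 to 59679375), was at 1247 and 1209 CPM at 24 h, against 2081 and 1591 CPM at 0 h. It was called lower by a narrow margin (log2 fold change -0.58, SE 0.13, adjusted p = 0.0497). The table does not separate the M1 and M2 splice forms of Pkm. Library-size scaling, limma voom and the filter at 1 CPM each ended this call, as did leaving out either 24 h library. Without 0 h replicate A its log2 fold change was -0.38.

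**Figure D2:**
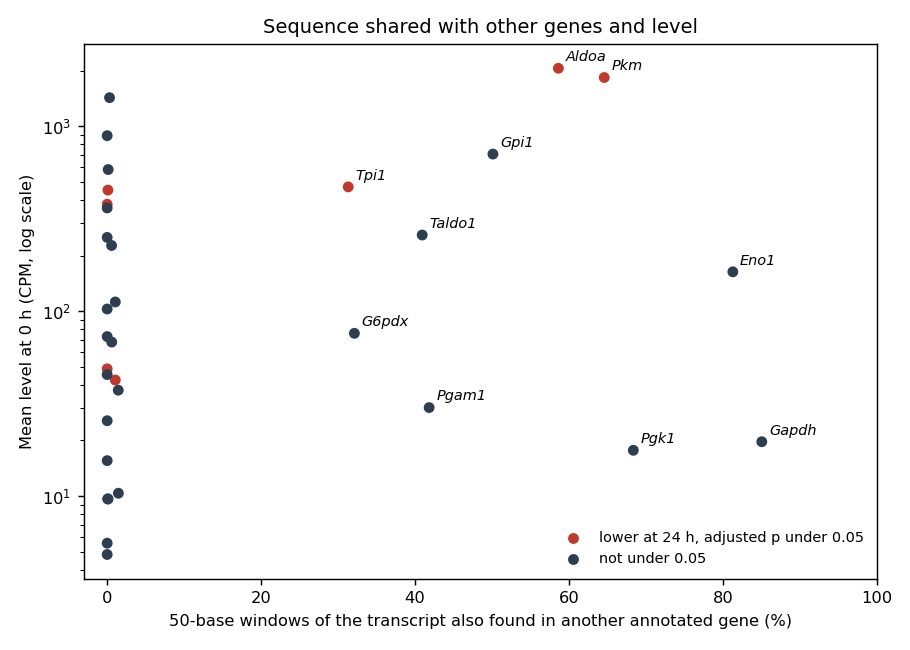
Share of the 50-base windows of each gene's principal transcript that also occur in another annotated gene (x, percent) against the mean level at 0 h (y, CPM on a log axis), with genes called lower at 24 h in red. Gapdh and Pgk1 combine shares of 85.05% and 68.4% with mean levels of 19.7 and 17.7 CPM, while Aldoa and Pkm keep 2060.0 and 1836 CPM at shares of 58.6% and 64.6%.

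Pyruvate dehydrogenase kinases phosphorylate and inhibit the enzyme that turns mitochondrial pyruvate into acetyl-CoA, and 1 of the 3 genes passed the test. Pdk1 (chromosome 2, 71873224 to 71903858) was at 28.1 and 29.7 CPM at 24 h, against 42.0 and 42.8 CPM at 0 h. It fell by 0.55 on the log2 scale (SE 0.11, adjusted p = 0.0344), and its 0 h replicates were nearly equal. Pdk2 was at 13.8 and 13.9 CPM at 24 h, against 31.1 and 19.98 CPM at 0 h (log2 fold change -0.88, SE 0.21, adjusted p = 0.0546, and -0.53 without 0 h replicate A). Pdk3 was at 43.2 and 47.6 CPM at 24 h and 46.3 and 44.5 CPM at 0 h, with a log2 fold change of 0.00 (SE 0.11), and 0.027 without 0 h replicate A. Per length Pdk3 was the highest of the 3, with 67.9% and 69.3% of their summed TPM at 24 h, against 54.3% and 59.5% at 0 h. The count ratio of Pdk1 to Pdk3 was 0.651 and 0.624 at 24 h, against 0.907 and 0.963 at 0 h, while that of Pdk1 to Pdk2 overlapped between the groups.

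**Figure D3:**
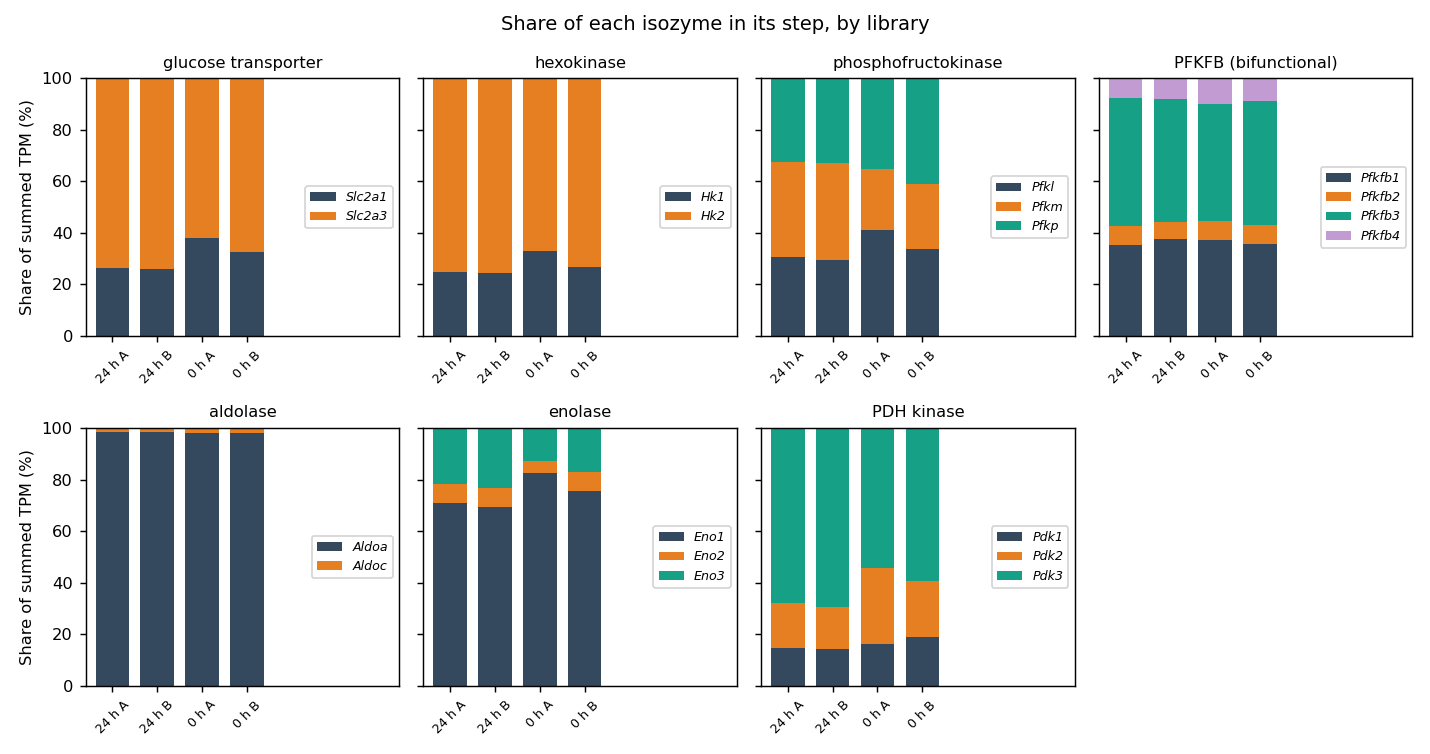
Share of each isozyme in the summed TPM of its step (percent, stacked to 100), for 7 steps with more than 1 gene, with the 24 h libraries left of the 0 h libraries. The share of Pfkm is 36.5% and 37.6% at 24 h and 23.6% and 25.3% at 0 h, and that of Pdk3 is 67.9% and 69.3% at 24 h and 54.3% and 59.5% at 0 h.

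None of the 7 pentose phosphate enzymes passed the test, which 6.8% of all genes tested passed in either direction. Other fits of all 4 libraries called some lower. Pgd was called without a filter, with DESeq2's Wald test, with the replicate letter as a block and with GC and length offsets. In these fits 5.10%, 5.32%, 8.86% and 14.2% of all genes were lower. Tkt was called without a filter and with the offsets, G6pdx with the offsets, and Pgls with the block. No fit of all 4 libraries called Taldo1, Rpia or Rpe. In the oxidative branch, which makes NADPH, G6pdx was at 65.5 and 63.5 CPM at 24 h, against 80.6 and 71.2 CPM at 0 h (log2 fold change -0.23, adjusted p = 0.232, and -0.14 without 0 h replicate A). Pgd, the second NADPH-forming enzyme, was at 183.2 and 179.3 CPM at 24 h, against 282.1 and 219.1 CPM at 0 h (log2 fold change -0.47, SE 0.14, adjusted p = 0.0882, and -0.27 without 0 h replicate A). Pgls, the lactonase between them, was at 47.9 and 44.4 CPM at 24 h, against 90.8 and 45.3 CPM at 0 h, so its log2 fold change of -0.56 rested on 0 h replicate A and was 0.03 without it. Its exons share 20.6% of their bases with Fam129c on the same strand, and those of G6pdx 13.6% with Ikbkg on the other strand.

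In the non-oxidative branch, which rearranges sugars to ribose phosphate and back, no gene passed the test. Tkt, transketolase, was at 714.0 and 681.0 CPM at 24 h, against 1030 and 750.8 CPM at 0 h (log2 fold change -0.35, adjusted p = 0.196, and -0.11 without 0 h replicate A). Taldo1, transaldolase, was at 242.2 and 246.7 CPM at 24 h and 269.4 and 247.1 CPM at 0 h (log2 fold change -0.08, and -0.018 without 0 h replicate A). Rpia, the ribose phosphate isomerase, was at 8.45 and 8.89 CPM at 24 h and 10.9 and 8.39 CPM at 0 h (log2 fold change -0.15). Rpe, the epimerase, was at 106.7 and 106.5 CPM at 24 h and 94.0 and 111.5 CPM at 0 h (log2 fold change 0.05). The groups of Rpia and Rpe overlapped, and without 0 h replicate A their values were 0.045 and -0.066. Per length Tkt was at 293.4 ± 13.3 TPM at 24 h and 365.5 ± 79.1 TPM at 0 h, and Taldo1 at 348.3 ± 0.46 TPM at 24 h and 359.4 ± 20.1 TPM at 0 h (SD, n = 2). Taldo1 was above Tkt beyond their spread at 24 h and not at 0 h, and by uniquely matched length Taldo1 was higher at both times, at 754.5 against 485.1 TPM at 24 h and 771.4 against 598.3 TPM at 0 h. Rpia was at 5.01 ± 0.12 TPM at 24 h and 5.43 ± 0.97 TPM at 0 h.

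By role, 5 of 16 glycolytic enzymes were called lower (median log2 fold change -0.51, 14 of 16 negative). So were 1 of 3 pyruvate dehydrogenase kinases (median -0.55, 3 of 3 negative) and 1 of 2 glucose transporters (median -0.47, 2 of 2 negative). Of the pentose phosphate enzymes 0 of 7 were called lower (median -0.23, 6 of 7 negative), and of the fructose bisphosphate regulators 0 of 5 (median 0.23, 2 of 5 negative). Of all genes tested, 2.65% were called lower and 50.8% were negative. Against that share, a count of 0 in so small a group does not set it apart. The difference between these groups was not tested. Per length, Aldoa was the highest member, at 1462 ± 60.2 TPM at 24 h and 2137 ± 283 TPM at 0 h (SD, n = 2). Pkm followed at 759.7 ± 25.7 TPM at 24 h and 1109 ± 204 TPM at 0 h, then Slc2a3. Tpi1 was at 348.3 ± 6.93 TPM at 24 h and 516.0 ± 22.9 TPM at 0 h. Taldo1 and Tpi1 did not differ beyond their spread at 24 h. Members whose reads also match other genes may be understated on this scale.

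**Figure D4:**
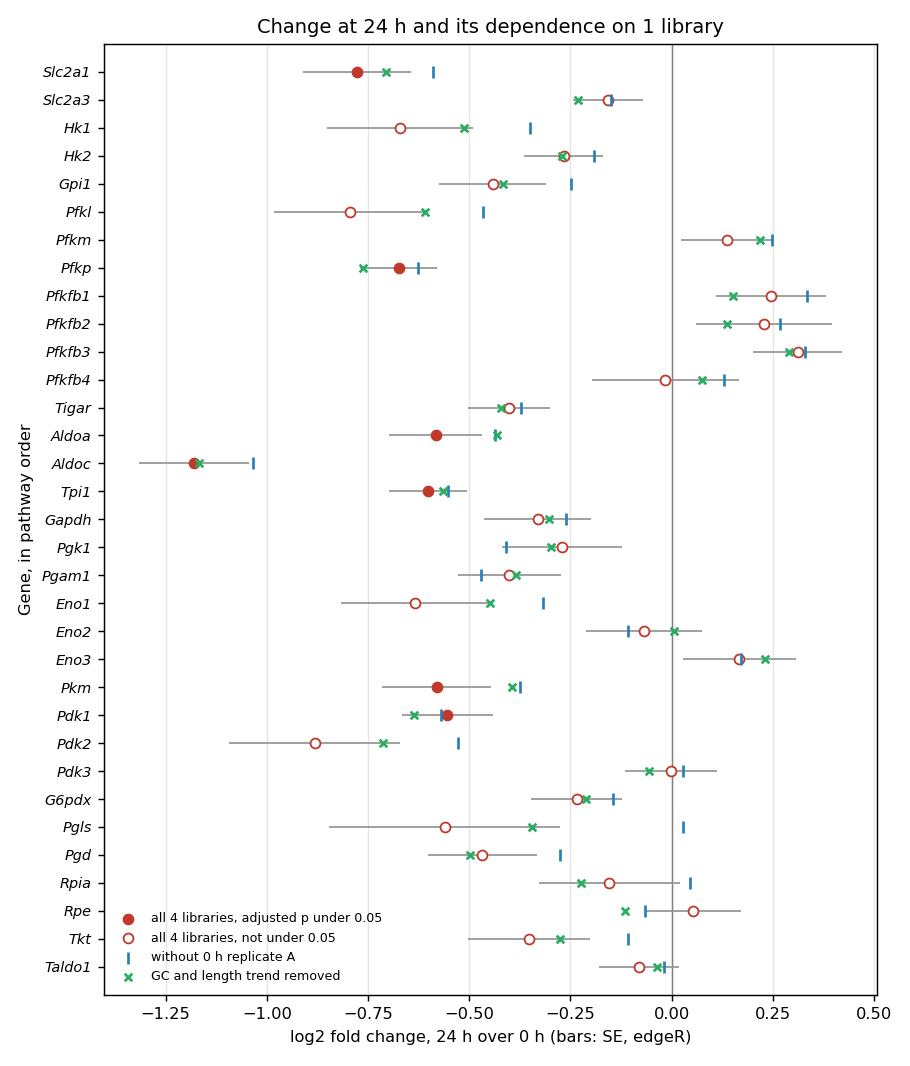
Log2 fold change of each gene, 24 h over 0 h, with SE bars from edgeR (filled circles, adjusted p under 0.05), the value without 0 h replicate A (blue bars) and with GC and length offsets (green crosses). Aldoc lies lowest at -1.18, most glycolytic enzymes lie left of 0 in all 3 versions, and Pgls moves from -0.56 to 0.03 without 0 h replicate A.

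Among 43 other genes of these pathways, chosen by name, 36 could be tested (median log2 fold change -0.10). Of these, 2 were called lower, 1 higher and 33 neither, against 2.65% lower and 4.15% higher of all genes tested. Pgm2, a phosphoglucomutase, was at 113.9 and 110.6 CPM at 24 h, against 159.4 and 156.4 CPM at 0 h (log2 fold change -0.49, SE 0.10, adjusted p = 0.0320). Tktl2, a transketolase-like gene, was at 0.443 and 0.598 CPM at 24 h, against 1.38 and 1.46 CPM at 0 h (log2 fold change -1.45, SE 0.31, adjusted p = 0.0393). Shpk, sedoheptulokinase, which feeds a sugar into the pentose phosphate pathway, was at 10.7 and 11.2 CPM at 24 h, against 5.44 and 5.12 CPM at 0 h. It rose by 1.05 on the log2 scale (SE 0.15, adjusted p = 0.0130). The liver glucose carrier gene Slc2a2 and the testis kinase gene Pgk2 were at 0 to 0.123 CPM in every library. Of the muscle and liver markers Ckm, Acta1, Myh4, Alb and Afp, 1 was tested, and the list summed to 0.845 and 0.620 CPM at 24 h and 0.376 and 0.288 CPM at 0 h.

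Feeder fibroblasts can also carry these enzymes. Of 16 fibroblast markers 14 were tested. Of these, 1 (Pdgfrb) was called lower and 1 (Vim) higher, against 2.65% and 4.15% of all genes tested. Pdgfrb was at 6.04 and 5.86 CPM at 24 h, against 13.6 and 10.6 CPM at 0 h (log2 fold change -1.02). Vim was at 197.4 and 206.9 CPM at 24 h, against 100.5 and 89.1 CPM at 0 h (log2 fold change 1.09). The list summed to 3017 and 2978 CPM at 24 h, against 3669 and 2989 CPM at 0 h. Levels ranged widely within the list: Dcn and Lum were at 0 to 0.119 CPM in all 4 libraries, while Col1a1 was at 69.1 and 67.4 CPM at 24 h, against 90.1 and 59.6 CPM at 0 h. Col1a2 was at 22.5 and 21.1 CPM at 24 h, against 25.8 and 18.7 CPM at 0 h. Acta2 was at 17.9 and 16.3 CPM at 24 h, against 13.3 and 12.98 CPM at 0 h. Fn1 made up most of the sum, at 2051 and 1988 CPM at 24 h, against 2611 and 2033 CPM at 0 h. The part of feeder cells in the members' levels was not tested.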

How the data were processed

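The authors deposited raw counts of reads for each gene by Ensembl ID. The submitters' processing notes name TopHat2, HTSeq, DESeq and mm10 without their roles. Libraries were stranded and read as 50-base single reads, per the labels' protocols. The annotation, the strand setting and the handling of multiply matching reads are not stated there.

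Gene symbols, positions and exon lengths were taken from GENCODE M21 (GRCm38, which is mm10). After filterByExpr (minimum count 10, minimum total 15) and TMM scaling, 18005 genes were tested, 2-sided, by quasi-likelihood in edgeR 4.0.16 (legacy=TRUE, R 4.3.3), and p-values were adjusted by Benjamini-Hochberg over all of them (threshold 0.05). The members, the other lists and the motifs were chosen with earlier results of these data known. All 33 members are named, and from each other list up to 4 genes past the test in order of p. Other genes named were chosen after their values were seen. Each SD is over 2 libraries, called biological replicates in the series' design text, and p-values measure only the spread between these samples. With 3 counts as the upper limit for a count of 0, the floors were 0.0572 to 0.0652 CPM, for counting error only. Shared windows were found with BWA 0.7.19 against the longest transcript of every other gene away from the member's locus. In fits without 1 library, the single library left is taken to vary as the other group does. Alternatives used limma 3.58.1 and DESeq2 1.42.0. Promoter sequences are RefSeq's, on GRCm38.p6.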

Additional observations from a re-analysis of the deposited data

How the results depend on the processing

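The 7 calls of lower members became 15 without a filter on low counts (5.10% of all genes were lower), 14 with DESeq2's Wald test, 20 with GC and length offsets (2 higher) and 22 with these and the replicate block (2 higher, against 18.1% lower and 14.5% higher of all genes). Leaving out single libraries gave 1 to 23 lower calls and 0 to 3 higher calls, and a median log2 fold change of -0.40 to -0.25. With the replicate letter as a block, 15 members were called lower, against 8.86% of all genes. The labels do not tie same-lettered libraries to each other, and the deviations of 24 h A and 0 h A from their group means correlated at r = 0.23 across 13545 genes, so the block is only an alternative. All 7 calls held with DESeq2 size factors, upper quartile scaling, no filter, DESeq2, the block and the offsets, and 6 held with library-size scaling (Pkm lost), the filter at 1 CPM and limma voom. All genes together gave 1225 calls, 61.1% of them higher, against 2589 without a filter (47.5%), 1994 with DESeq2 (52.01%), 3253 with the block (51.0%) and 4657 with the offsets (45.01%). The cause of these changes was not tested.

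Signs changed for 6 members. The log2 fold change of Pfkfb4 was 0.030 with upper quartile and 0.043 with library-size scaling, 0.076 with the offsets, 0.075 with the offsets and block, and -0.15 to 0.13 over left-out libraries. That of Eno2 was 0.0052 with the offsets and 0.013 with the block added. That of Pdk3 was 0.043 with upper quartile and 0.056 with library-size scaling, 0.012 with the filter at 1 CPM and -0.085 to 0.048 over left-out libraries. Over left-out libraries Pgls was at -0.98 to 0.027, Rpia at -0.33 to 0.045 and Rpe at -0.066 to 0.18, the sign turning without 0 h replicate A in each. Rpe was at -0.12 with the offsets, with or without the block. Length definitions changed the size of isozyme shares, and the uniquely matched length was chosen after seeing the data.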

Other observations

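Several named or predicted copies of the members carried counts of their own, chosen here after their values were seen. Gm1840, which shares windows with Gpi1, was at 377.2 and 373.3 CPM at 24 h, against 566.3 and 442.6 CPM at 0 h (log2 fold change -0.43, adjusted p = 0.102 in edgeR). Gm6560, which shares windows with Pkm, was at 131.5 and 124.9 CPM at 24 h, against 218.0 and 168.8 CPM at 0 h (log2 fold change -0.59, adjusted p = 0.0499 in edgeR). Aldoart1, a retrocopy of Aldoa, was at 54.6 and 51.4 CPM at 24 h, against 107.9 and 75.7 CPM at 0 h (log2 fold change -0.79, adjusted p = 0.0411 in edgeR). In these 3 the 24 h libraries lay below the 0 h libraries, as in the genes they resemble. The copies of Tpi1, Pgam1 and G6pdx with the highest mean CPM (Tpi-rs11, Pgam1-ps2 and G6pd2) were also lower at 24 h. In the highest copies of Eno1, Gapdh and Pgk1 the groups overlapped. Their log2 fold changes were 0.020 (Eno1b, mean 40.0 CPM), 0.069 (Gm7150, 3.81 CPM) and -0.0080 (Pgk1-rs7, 0.838 CPM). Summed over all copies found, the picture differed for Eno1 and Gapdh. The 6 copies of Eno1 summed to 61.5 and 65.2 CPM at 24 h, against 83.2 and 77.9 CPM at 0 h. The 244 copies of Gapdh summed to 41.3 and 39.3 CPM at 24 h, against 61.8 and 44.1 CPM at 0 h. The summed copies of Pgk1 overlapped between the groups. Whether these counts are reads of the copies or of the members was not tested.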
